A study of Equus asinus with 6 samples.

Results

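Glucose entry into muscle was followed through the transcripts of 10 genes in longissimus dorsi (a back muscle) of Guangling donkeys. The genes were chosen by name as the glucose transporters SLC2A4, SLC2A1 and SLC2A3, the transport regulators TBC1D4, TBC1D1 and TXNIP, the hexokinases HK1 and HK2, and the pyruvate dehydrogenase kinases PDK2 and PDK4. All 10 had a row in the table of 20873 genes, and all 10 were among the 15933 genes that passed the filter on low counts and were tested. Muscle of high intramuscular fat (IMF) content gave 3 libraries and muscle of low IMF content gave 3. The donkeys of both groups were of the same breed and 24 months old, and the tissue was snap-frozen shortly after slaughter. No label gives the measured fat content, the sex or which animal a library came from, so the p-values describe the spread between these libraries, which may be technical. The muscle structural gene DES measured 8430 to 11300 CPM (read count per scaled library total) across the libraries, and the slow and fast troponins TNNT1 and TNNT3 measured 3870 to 9220 CPM and 1670 to 11100 CPM.

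Muscle takes up glucose by facilitated diffusion through GLUT proteins. GLUT4, the product of SLC2A4, is held in vesicles inside the resting fibre and moves to the surface after insulin or contraction, while the Rab GTPase-activating proteins TBC1D4 and TBC1D1 hold the vesicles back until they are phosphorylated. Hexokinase then traps glucose as glucose 6-phosphate, and TXNIP, which is induced by glucose, removes GLUT proteins from the surface. Further down, the pyruvate dehydrogenase kinases switch off the complex that turns pyruvate into acetyl-CoA inside the mitochondrion. PDK4 is the kinase that fasting and fatty acids induce in muscle. These roles are known mainly from human and rodent work.

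The libraries held 39052998 to 47494157 assigned reads. They differed in fibre and glycolytic transcripts within groups, and high IMF replicate 1 had the lowest summed level of the fast fibre list, 22164 CPM against 68373 to 113770 CPM in the other libraries. Low IMF replicates 2 and 3 were close to each other, with a root mean square difference of 0.21 in log2 CPM over 13570 genes where the other pairs of libraries gave 0.537 to 0.844. Their counts differed by 7.7 times the variance of sampling, where the other pairs gave 118 to 560 times. The labels do not say whether low IMF replicates 2 and 3 share an animal. This measure cannot decide it, since preparations of the same animal can also differ by more than sampling. They were kept as separate libraries.

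Per gene length, TXNIP was the highest of the 10 transcripts and the row named TBC1D1 the lowest. The deposited FPKM values (read count per gene length and library total) averaged 487 ± 162 for TXNIP over the 6 libraries (SD, n = 6), 127 ± 36.6 for PDK2 and 53.6 ± 21.6 for SLC2A4, and each of these exceeded the next gene in all 6 libraries. TBC1D4 averaged 19.1 ± 1.73 FPKM, PDK4 16.5 ± 20.8 and HK1 12.3 ± 2.18. TBC1D4 exceeded HK1 in all 6 libraries, while PDK4 was separated from neither, lying above HK1 in 3 of 6 libraries and below TBC1D4 in 4. SLC2A3 averaged 6.54 ± 2.69 FPKM, SLC2A1 4.36 ± 1.53 and HK2 3.798 ± 2.815. These 3 ranges overlapped as well. TBC1D1 averaged 0.478 ± 0.134 FPKM under its own name. A further row of this gene, LOC106831099, which is described below, averaged 3.60 FPKM. The last place in this order therefore holds for the named row only, not for the TBC1D1 transcript as a whole.

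**Figure D1:**
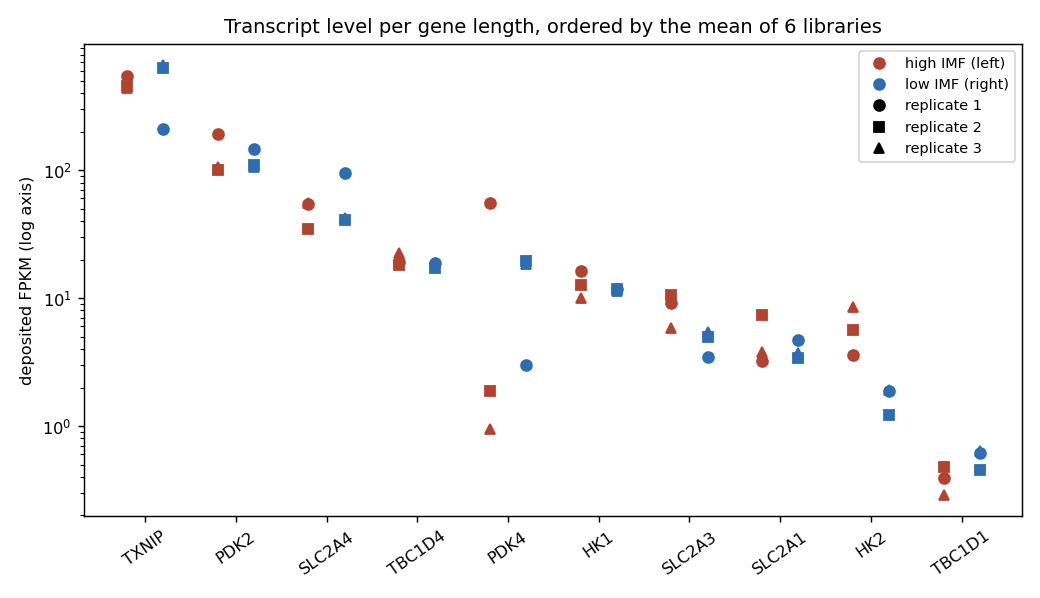
Deposited FPKM of the 10 genes on a log axis, ordered by the mean over 6 libraries, with high IMF libraries left of low IMF libraries and marker shapes for replicates 1 to 3. TXNIP spans 208 to 657 FPKM, HK1 10.1 to 16.4 and PDK4 0.95 to 55.3, the widest spread of the 10.

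High and low IMF muscle were compared to see which of these transcripts go with its fat content. HK2 and SLC2A3 measured more in every high IMF library than in any low IMF library, and the row named TBC1D1 measured less, so that the groups did not overlap for 3 of the 10 genes (2 higher and 1 lower), where 13% of all genes tested had groups without overlap, 6.86% higher and 6.1% lower. In edgeR's quasi-likelihood test 0 of the 10 passed a Benjamini-Hochberg adjusted p of 0.05, as did 0% of all genes tested. At an unadjusted p under 0.05 it had 2 of the 10, HK2 and SLC2A3, each higher, and 7.27% of all genes, 4.53% higher and 2.74% lower. DESeq2's Wald test called 1 of the 9 genes to which it gave an adjusted p, HK2, as higher, where it called 1.16% of all genes and 0.68% as higher. In bulk muscle, fewer cells of a type and less RNA per cell cannot be told apart, which holds for every value given here.

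**Figure D2:**
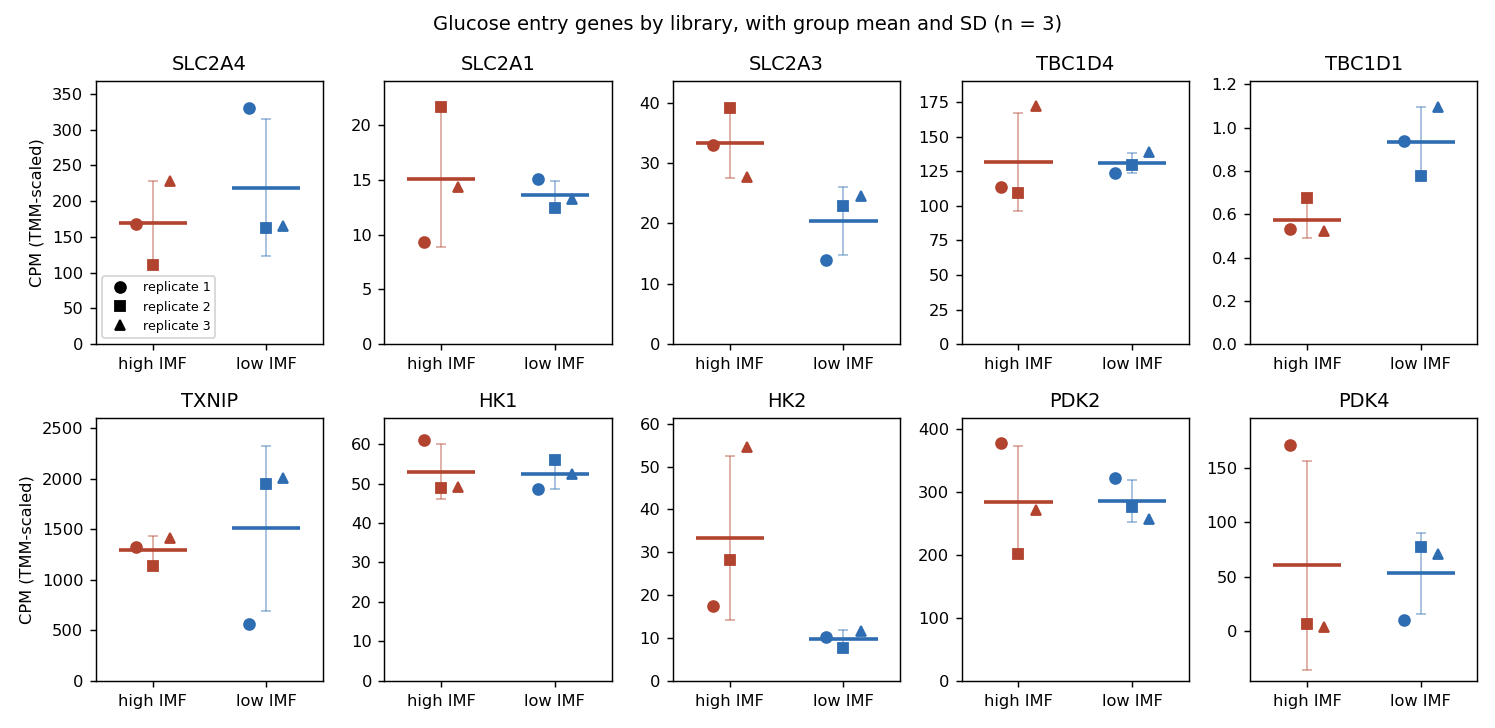
TMM-scaled CPM of each gene in each library, high IMF left and low IMF right in every panel, with the group mean as a line and the SD as a bar (n = 3). HK2 and SLC2A3 have separate groups, the row named TBC1D1 has separate groups at about 1 CPM or less, and PDK4 runs from 3.85 to 171 CPM within the high IMF group.

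Among the transporters, SLC2A4 measured 168, 111 and 229 CPM in high IMF replicates 1, 2 and 3, against 329.6, 162 and 165 CPM in the low IMF libraries. Low IMF replicate 1 stood above all other libraries, and the groups overlapped. The fitted log2 fold of high over low was -0.37 ± 0.37 (standard error; edgeR adjusted p = 0.914), and it was 0.03 without low IMF replicate 1. SLC2A1, which encodes GLUT1, the transporter of basal uptake, of human red cells and of endothelium, measured 9.28, 21.6 and 14.4 CPM in high and 15.0, 12.5 and 13.3 CPM in low IMF muscle. High IMF replicates 1 and 2 were the lowest and the highest of the 6 libraries (log2 fold 0.15 ± 0.30, edgeR adjusted p = 0.96), and without replicate 2 the log2 fold was -0.22.

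SLC2A3 encodes GLUT3, a high-affinity transporter best known from neurons and also made by leukocytes and platelets. It measured 33.0, 39.1 and 27.7 CPM in the high IMF libraries, against 14.0, 22.8 and 24.5 CPM in the low IMF libraries. The groups came closest in high IMF replicate 3 and low IMF replicate 3, and every high IMF library lay above every low IMF library. The fitted difference was 1.63-fold (log2 fold 0.70 ± 0.25, unadjusted p = 0.0246, edgeR adjusted p = 0.612). Without each library in turn the log2 fold was 0.48 to 0.85, and with groups that did not overlap its sign could hardly change. The authors' deposited table gives SLC2A3 a log2 fold of 0.69 and an adjusted p of 0.374. Of the myeloid list, 13 of 14 tested genes had a positive log2 fold, with a summed level of 376, 162 and 82.1 CPM in high and 97.2, 87.8 and 87.6 CPM in low IMF muscle, and none of its 4 defining markers was at 0 in any library. The exception was the defining marker CD68, at 4.46, 4.50 and 2.78 CPM in high and 5.42, 3.95 and 3.26 CPM in low IMF muscle (log2 fold -0.10). The defining markers CSF1R, TYROBP and CD163 had positive log2 folds (1.49, 1.11 and 1.19). The order of the high IMF libraries differed, with SLC2A3 highest in replicate 2 and the myeloid sum highest in replicate 1, and the part of these cells in the SLC2A3 result was not tested.

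Over the 3 transporters, SLC2A4 made up 81.3%, 65.9% and 85.3% of summed FPKM in the high IMF libraries, against 92.1%, 83.0% and 82.2% in the low IMF libraries. The means were 77.5 ± 10.2% in high and 85.8 ± 5.46% in low IMF muscle (SD, n = 3 each), with overlap (exact permutation test, two-sided, p = 0.4, where 0.1 is the smallest p that 3 against 3 libraries allow). GLUT4 transcript thus predominated in every library, and the high IMF library with the smallest share, replicate 2, was also the one highest in SLC2A1 and SLC2A3.

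The vesicle regulator TBC1D4 was one of the steadiest of the 10. It measured 113, 109 and 172 CPM in high and 124, 129.8 and 139 CPM in low IMF muscle, with high IMF replicate 3 above the rest and the groups overlapping. Its log2 fold of 0.01 ± 0.22 (edgeR adjusted p = 0.997) took either sign under the settings tried. The row named TBC1D1 held only 24, 36 and 18 reads in the high and 45, 32 and 45 reads in the low IMF libraries. That is 0.53, 0.675 and 0.521 CPM against 0.938, 0.776 and 1.09 CPM, and the groups did not overlap (log2 fold -0.70 ± 0.41, edgeR adjusted p = 0.814). Counting error alone reached 23.6% in its lowest library.

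A further row, LOC106831099, carries the description of TBC1D1 in the deposited table and the symbol TBC1D1 in RefSeq, matched by gene identifier. It held 854, 1135 and 203 reads in the high and 624, 623 and 559 reads in the low IMF libraries. The row named TBC1D1 therefore held 2.73% to 8.14% of the reads of both rows, and its gene length, as implied by count and FPKM, was 1577 bases where that of LOC106831099 was 4202. LOC106831099 measured 18.9, 21.3 and 5.88 CPM in high and 13.0, 15.1 and 13.6 CPM in low IMF muscle. High IMF replicate 3 was the lowest library and the other high IMF libraries the highest, so the groups overlapped (log2 fold 0.14 ± 0.43, edgeR adjusted p = 0.972). With both rows summed, which was chosen after the values were seen, the log2 fold of TBC1D1 was 0.10 in place of -0.70 (edgeR adjusted p = 0.979). The named row alone thus gave a sign opposite to that of both rows together.

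TXNIP, the arrestin domain protein that draws GLUT1 and GLUT4 off the cell surface, ranked 77 among all genes by mean CPM. It measured 1323, 1138 and 1415 CPM in the high IMF libraries, against 568, 1953 and 2007 CPM in the low IMF libraries. All 3 high IMF libraries lay between low IMF replicate 1 and the other low IMF libraries, so the low IMF group spanned 3.53-fold and the high IMF group 1.24-fold. The fitted log2 fold was -0.22 ± 0.46 (edgeR adjusted p = 0.961), and it was -0.63 without low IMF replicate 1 and 0.03 when replicate 3 was left out. Low IMF replicate 1, the library lowest in TXNIP, was the one highest in SLC2A4.

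Genes around TXNIP, other arrestin domain proteins, thioredoxins and the glucose-sensing transcription factors, numbered 14 tested, of which 3 had a positive and 11 a negative log2 fold. Their median log2 fold was -0.25 where that of all genes tested was 0.0085. In edgeR 0 of 14 passed, and 2 were lower and 0 higher at an unadjusted p under 0.05, beside 2.74% lower and 4.53% higher of all genes tested. ARRDC5 measured 1.46, 2.25 and 2.12 CPM in high and 8.28, 5.19 and 7.08 CPM in low IMF muscle, and ARRDC2 154, 221 and 267 CPM in high and 291, 514 and 466 CPM in low IMF muscle. Neither passed in edgeR (adjusted p = 0.365 and 0.527), and ARRDC5 passed in DESeq2 (adjusted p = 4.9e-05). ARRDC4, a close relative of TXNIP and like it a target of the glucose-sensing factors, was looked at after its values were seen. It measured 16.2, 34.2 and 41.7 CPM in high and 6.17, 48.6 and 52.7 CPM in low IMF muscle, with low IMF replicate 1 lowest as for TXNIP. MLXIPL, which encodes the carbohydrate response factor ChREBP and was also looked at afterwards, was highest in that library, at 89.1 CPM, where the other 5 libraries measured 14.9 to 32.8 CPM.

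The hexokinases parted. HK1, the form made in most tissues, measured 61.0, 48.8 and 49.2 CPM in high and 48.6, 55.9 and 52.4 CPM in low IMF muscle. The groups overlapped (log2 fold 0.02 ± 0.16, edgeR adjusted p = 0.99), and the SD on the log2 scale, 0.132, exceeded that of only 7.87% of the 13570 genes tested with a mean of at least 1 CPM. HK2, the insulin- and exercise-responsive form that predominates in adult muscle and fat of rodents and humans, measured 17.4, 28.1 and 54.5 CPM in the high IMF libraries, against 10.2, 7.64 and 11.6 CPM in the low IMF libraries. Every high IMF library lay above every low IMF library, and the high IMF libraries differed 3.13-fold among themselves. The means were 33.4 ± 19.1 CPM in high and 9.83 ± 2.02 CPM in low IMF muscle (SD, n = 3 each), a fitted 3.39-fold.

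For HK2 edgeR gave a log2 fold of 1.76 ± 0.41, an unadjusted p of 0.00344 and an adjusted p of 0.51. Without each library in turn the log2 fold ran from 1.21 without high IMF replicate 3 to 2.05 when replicate 1 was left out. Its sign could hardly change, since the groups did not overlap, and edgeR's adjusted p stayed above 0.05 in each of these fits. DESeq2 gave HK2 an adjusted p of 0.00727, and the authors' deposited table marks it as up with a log2 fold of 1.75 and an adjusted p of 0.00732. That call was made in 4 of 6 DESeq2 runs that left out 1 library, and was lost without low IMF replicate 2 (adjusted p = 0.183) and in the run lacking low IMF replicate 3 (adjusted p = 0.0533). The HK2 row held 315 to 1882 reads, so counting error was at most 5.63%.

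HK2 made up 18.0%, 30.6% and 45.9% of the summed FPKM of HK1 and HK2 in the high IMF libraries, against 13.9%, 9.47% and 14.5% in the low IMF libraries. The mean share was 31.5 ± 14.0% in high and 12.6 ± 2.75% in low IMF muscle (SD, n = 3 each; exact permutation test, two-sided, p = 0.1, the smallest p that 3 against 3 libraries allow). By FPKM, HK1 was thus the more abundant hexokinase transcript in all 6 libraries, and its lead was narrowest in high IMF replicate 3. By CPM, with no correction for gene length, HK2 made up 52.6% in that library. The difference of 18.85 percentage points in the FPKM share was 11.6 without high IMF replicate 3, and 25.6 when replicate 1 was the one left out.

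**Figure D3:**
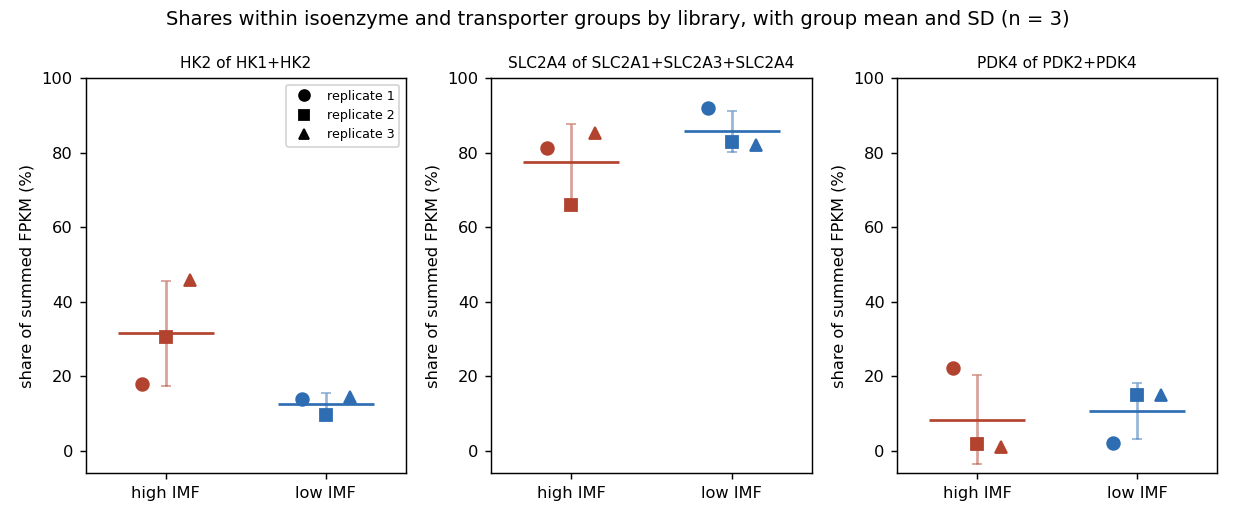
Share of HK2, SLC2A4 and PDK4 in the summed FPKM of their group of genes, in percent, for each library, high IMF left and low IMF right, with group mean and SD (n = 3). The HK2 share is 18.0% to 45.9% in high and 9.47% to 14.5% in low IMF libraries, while the SLC2A4 and PDK4 shares overlap between groups.

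Fat cells also make HK2. Of 12 adipocyte markers tested, 8 had a positive log2 fold, and the median was 1.08. At an unadjusted p under 0.05, 3 were higher and 0 lower, beside 4.53% higher and 2.74% lower of all genes tested. The markers with a negative log2 fold were FABP4 (-0.51), AQP7 (-0.30), PNPLA2 (-0.05) and GPD1 (-0.02). THRSP, a promoter of lipid synthesis, measured 28.0, 151 and 8.95 CPM in high and 0.146, 3.37 and 3.09 CPM in low IMF muscle, with separate groups (log2 fold 4.84, adjusted p = 0.523 in edgeR and 0.0561 in DESeq2). The lipid droplet gene CIDEA measured 5.83, 20.4 and 2.32 CPM in high and 0.396, 2.55 and 1.43 CPM in low IMF muscle, with overlap, and passed in DESeq2 (adjusted p = 0.0440) but not in edgeR (0.592). High IMF replicate 2 was the highest library in both, where HK2 was highest in replicate 3.

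The median centred log2(CPM + 0.5) of the adipocyte list was 0.465, 2.10 and -0.638 in high and -1.47, 0.18 and -0.0729 in low IMF muscle. Its summed level was 1297, 2072 and 2114 CPM in high and 1504, 1911 and 1762 CPM in low IMF muscle. The sum and the median ordered the libraries differently, since the sum put high IMF replicate 3 highest and replicate 1 lowest of the 6. GPD1, which muscle fibres also make and which was singled out after its values were seen, held the largest part of the sum, at 687, 1038 and 1794 CPM in high and 939, 1351 and 1281 CPM in low IMF muscle. The lipid droplet gene PLIN1 measured 28.6, 108 and 7.53 CPM in high and 1.56, 20.9 and 15.5 CPM in low IMF muscle. The defining marker LEP was at 0 in low IMF replicate 1, and PLIN1, ADIPOQ and CIDEC were at 0 in no library. High IMF replicate 3 was thus the highest library in HK2 and below low IMF replicates 2 and 3 in PLIN1. Fast fibre markers, of which 9 of 11 tested had a negative log2 fold (median -0.29), summed to 22164, 68373 and 113770 CPM in high and 69600, 98721 and 91902 CPM in low IMF muscle. High IMF replicates 1 to 3 had the same order in this sum as in HK2, whereas the low IMF libraries, within the same range of the sum, stayed below them in HK2. The part of fibre type and of fat cells in the HK2 result was not tested.

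Of the pyruvate dehydrogenase kinases, PDK2, the constitutive one, measured 379, 202 and 272 CPM in high and 323, 277 and 258 CPM in low IMF muscle. The groups overlapped, the means were 284 ± 88.9 and 286 ± 33.2 CPM (SD, n = 3 each) in high and low IMF muscle, and the log2 fold was -0.01 ± 0.26 (edgeR adjusted p = 0.997).

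PDK4 varied more than almost any other gene, and not by group. It measured 171, 6.02 and 3.85 CPM in high IMF replicates 1, 2 and 3, against 10.4, 77.2 and 71.2 CPM in the low IMF libraries. High IMF replicate 1 and low IMF replicates 2 and 3 were high, high IMF replicates 2 and 3 and low IMF replicate 1 were low, and the extremes, both in the high IMF group, were 44.5-fold apart. Its SD on the log2 scale, 2.27, exceeded that of 99.8% of those 13570 genes. With 133 to 7757 reads behind these values, counting error was at most 8.67%.

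The direction of PDK4 depended on how libraries were averaged. The fitted log2 fold, a ratio of group levels, was 0.19 ± 1.38 (edgeR adjusted p = 0.988), while the difference of mean log2 CPM, in which each library counts equally and which was added after the values were seen, was -1.28 (exact permutation test, two-sided, p = 0.6). Without high IMF replicate 1 the log2 fold was -3.42, with an unadjusted p of 0.00803 and an edgeR adjusted p of 0.405. DESeq2 gave PDK4 no p-value, and the authors' deposited table lists a log2 fold of 0.17 and no p for it. The share of PDK4 in the summed FPKM of PDK2 and PDK4 was 22.3%, 1.86% and 0.894% in high and 1.99%, 15.0% and 14.9% in low IMF muscle, so that PDK2 was the more abundant kinase transcript in every library.

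**Figure D4:**
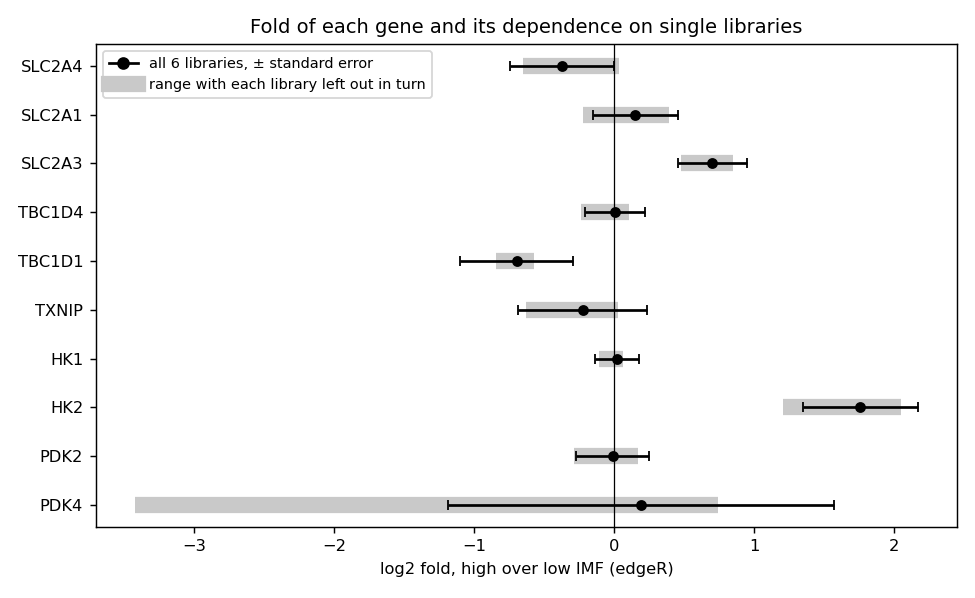
Log2 fold of high over low IMF for each gene from edgeR, as a point with its standard error, and the range of the fold when each library is left out in turn, as a grey bar. The grey bars of HK2 (1.21 to 2.05) and SLC2A3 (0.48 to 0.85) stay above 0 and that of the row named TBC1D1 below 0, while that of PDK4 runs from -3.42 to 0.74. For HK2, SLC2A3 and the row named TBC1D1 the groups do not overlap, so leaving out a library could hardly change the sign.

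Around these 10 genes, 9 lists of related genes held 153 tested members, 65 with a positive and 88 with a negative log2 fold. In edgeR 0 of 153 passed, and 14 (9.15%) had an unadjusted p under 0.05, beside 7.27% of all genes tested. DESeq2 called 4 of 153 (2.61%), beside 1.16% of all genes. Among other transporters and hexokinases, 8 of 10 tested had a positive log2 fold (median 0.11) and 1 was higher at an unadjusted p under 0.05. That gene was HK3, a hexokinase of leukocytes, at 1.50, 1.93 and 2.12 CPM in high and 0.688, 0.170 and 0.705 CPM in low IMF muscle (edgeR adjusted p = 0.546). In the pyruvate entry and dehydrogenase list, 5 of 17 were positive and 12 negative (median -0.12). Of these, PDK1, the hypoxia-inducible kinase, was higher at an unadjusted p under 0.05 and had separate groups, with 18.6, 15.1 and 18.9 CPM in high and 12.4, 12.6 and 13.9 CPM in low IMF muscle (edgeR adjusted p = 0.639).

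In the insulin relay to GLUT4 vesicles, 10 of 25 were positive and 15 negative (median -0.07), with 2 lower at an unadjusted p under 0.05. Of all genes tested, 2.74% were lower and 4.53% higher at that level. The insulin receptor INSR measured 42.4, 41.7 and 39.1 CPM in high and 49.4, 57.9 and 57.9 CPM in low IMF muscle, and PIK3R1, the regulatory subunit of PI3-kinase, 47.0, 60.8 and 45.8 CPM in high and 77.7, 67.5 and 71.4 CPM in low IMF muscle. Both had separate groups, as had 6.1% of all genes tested in that direction, and neither passed in edgeR (adjusted p = 0.587 and 0.590). The contraction and energy sensing relay was evenly divided, with 8 positive and 8 negative of 16, a median of 0.0016 and 0 at an unadjusted p under 0.05. The hypoxia list had 3 positive and 11 negative of 14 (median -0.21), with 1 higher and 2 lower at that level. EGLN3, an oxygen-sensing prolyl hydroxylase, was the higher one, with 58.1, 18.2 and 119 CPM in high and 30.9, 14.9 and 15.2 CPM in low IMF muscle (3.19-fold, edgeR adjusted p = 0.639), and its groups overlapped. The peptide hormone gene ADM measured 10.3, 16.0 and 23.1 CPM in high and 17.9, 49.6 and 48.7 CPM in low IMF muscle (log2 fold -1.23, edgeR adjusted p = 0.619), with overlap as well. BNIP3, a mitophagy receptor, measured 84.9, 86.0 and 111 CPM in high and 118, 138 and 142 CPM in low IMF muscle (edgeR adjusted p = 0.618).

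Regulators of PDK4 and of the switch to fatty acid fuel had 6 positive and 14 negative of 20 (median -0.10). At an unadjusted p under 0.05, 2 were lower, beside 2.74% of all genes tested. KLF15, a glucocorticoid-induced factor, measured 61.3, 32.3 and 32.1 CPM in high and 99.6, 121 and 120 CPM in low IMF muscle, and passed in DESeq2 (adjusted p = 0.00129) but not in edgeR (adjusted p = 0.504). FOXO1, the forkhead factor that induces PDK4 in fasting muscle, measured 19.8, 24.5 and 22.9 CPM in high and 32.1, 30.0 and 30.2 CPM in low IMF muscle (edgeR adjusted p = 0.568). KLF15 was, like PDK4, highest in replicate 1 of the high and lowest in replicate 1 of the low IMF libraries. Its replicates 2 and 3 were nearly equal in either group, so their order carries no weight. The groups of KLF15 were separate, while those of PDK4 overlapped. FOXO1 also had separate groups and was lowest in high IMF replicate 1, where PDK4 was highest.

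Glycolysis after hexokinase had 10 positive and 8 negative of 18 (median 0.05), and 1 was higher at an unadjusted p under 0.05, beside 4.53% of all genes tested. That gene, the aldolase ALDOC, measured 11.4, 49.6 and 4.43 CPM in high and 1.42, 4.36 and 3.58 CPM in low IMF muscle, and passed in DESeq2 (adjusted p = 0.0191) but not in edgeR (0.552). PFKFB3, which makes the activator of phosphofructokinase, measured 121, 604.5 and 1220 CPM in high and 239.9, 1895 and 1952 CPM in low IMF muscle, lowest in replicate 1 of either group (edgeR adjusted p = 0.898). Glycogen genes had 12 positive and 7 negative of 19 (median 0.10), with 2 higher at that level. These 2 had separate groups, as had 6.86% of all genes tested in that direction. The branching enzyme GBE1 measured 113, 113 and 132 CPM in high and 72.8, 51.8 and 55.5 CPM in low IMF muscle, and PPP1R3C, which targets the phosphatase to glycogen, 130, 115 and 306 CPM in high and 99.9, 96.3 and 91.8 CPM in low IMF muscle. Neither passed in edgeR (adjusted p = 0.504 and 0.645), and GBE1 passed in DESeq2 (adjusted p = 0.00472). PPP1R3C shared with HK2 its maximum in high IMF replicate 3.

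Markers of other cells in the muscle were read in the same fit. In edgeR 0 of 113 passed. At an unadjusted p under 0.05 it had 24 of 113 (21.2%), 17 higher and 7 lower, beside 7.27% of all genes tested, and DESeq2 called 5 (4.42%) beside 1.16% of all genes. Positive log2 folds were found in 12 of 13 lymphocyte genes tested (median 1.5) and 12 of 12 fibroblast genes (median 0.70), beside the myeloid genes with a median of 1.15. Negative ones were found in 13 of 15 endothelial genes (median -0.30), 8 of 12 smooth muscle genes (median -0.37), 9 of 12 Schwann and perineurial genes (median -0.20) and 6 of 9 slow fibre genes (median -0.09). Summed levels were 21.6 to 37.4 CPM in high and 5.58 to 19.2 CPM in low IMF muscle for lymphocyte genes, and 579.7 to 2557 CPM in high and 769 to 1496 CPM in low IMF muscle for fibroblast genes. For genes of endothelium, which makes GLUT1, they were 981 to 1376 CPM in high and 1469 to 1583 CPM in low IMF muscle. Schwann and perineurial genes summed to 49.7 to 315 CPM in high and 155 to 232 CPM in low IMF muscle, smooth muscle genes to 11385 to 12445 CPM in high and 11153 to 13464 CPM in low IMF muscle, and slow fibre genes to 21705 to 50348 CPM in high and 28207 to 42462 CPM in low IMF muscle. The muscle structural gene DES held the largest part of the smooth muscle sum, at 9510, 9603 and 10770 CPM in high and 11270, 9219 and 8426 CPM in low IMF muscle. MYH11, of smallest p in that list, measured 41.2, 89.35 and 25.5 CPM in high and 85.8, 317 and 253 CPM in low IMF muscle, with overlap. It passed in DESeq2 (adjusted p = 0.0191) but not in edgeR (adjusted p = 0.523). Red cell genes, of which 3 of 7 listed were tested and 1 was positive, summed to 2.10 to 15.4 CPM in high and 1.22 to 3.54 CPM in low IMF muscle, and ALAS2 was at 0 in 5 of 6 libraries. The globin gene HBA1 measured 14.0, 1.20 and 1.91 CPM in high and 2.38, 0.849 and 0.389 CPM in low IMF muscle, highest in high IMF replicate 1 (log2 fold 2.24, edgeR adjusted p = 0.737). The Schwann marker S100B was at 0 in high IMF replicate 1. The part of these cells in the results of the 10 genes was not tested.

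The profiles of HK2 and PDK4 over the 6 libraries were set beside those of 12036 other genes with a symbol and a mean of at least 1 CPM. Likeness was the root mean square difference of log2(CPM + 0.5) after centring, and is a description over 6 libraries in which genes share the scaling of each library. Genes picked by likeness share the pattern of HK2 or PDK4 because of how they were picked. NFKBID, a nuclear IkB protein, was closest to HK2 at 0.34, followed by the lymphoid transcription factor gene IKZF2 at 0.343 and the forkhead gene FOXO6 at 0.377. FOXO6 measured 9.43, 30.6 and 45.5 CPM in high and 7.75, 8.78 and 7.22 CPM in low IMF muscle, like HK2 with high IMF replicate 3 on top and separate groups (edgeR adjusted p = 0.523).

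Profiles lay further from PDK4 in this measure, which grows with a gene's own spread. The SD of log2 CPM was 2.27 for PDK4 and 1.05 for HK2, so the distances of the 2 genes cannot be compared directly. The nearest profile was that of ARL11, a small GTPase of the ARF family, at 0.797, and its level was 0.0579 CPM in high IMF replicate 3. The stress-induced heat shock gene HSPA6 followed at 1.01, with 25.4, 3.13 and 3.10 CPM in high and 0.792, 36.6 and 22.0 CPM in low IMF muscle. The transcription factor KLF4 was next at 1.19, with 221, 89.7 and 45.4 CPM in high and 41.6, 205 and 195 CPM in low IMF muscle. By the way they were picked, all 3 genes were high in high IMF replicate 1 and low IMF replicates 2 and 3, as PDK4 was. No difference between the groups passed in edgeR (adjusted p = 0.937 to 0.966).

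**Figure D5:**
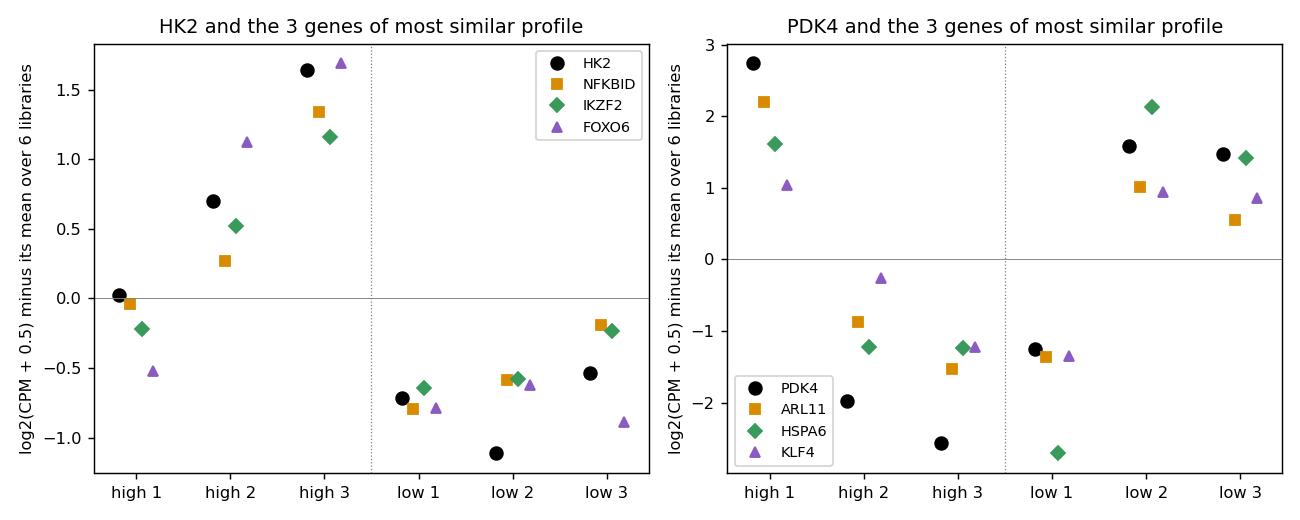
Centred log2(CPM + 0.5) of HK2 and PDK4 and the 3 genes of most similar profile to each, by library, high IMF left of the dotted line and low IMF right of it. The HK2 panel separates the groups for each gene, and in the PDK4 panel high IMF replicate 1 sits with low IMF replicates 2 and 3. Both follow from picking the genes by likeness.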

How the data were processed

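RNA-seq of 6 muscle libraries was analysed from the deposited series table. The authors deposited raw counts per gene as whole numbers, and the counts of the per-sample files differed from them in 0 cells. The submitters' processing notes name HISAT2 and the genome build mm9, a mouse build, although gene names are those of donkey, so no coordinates are given. The labels name more than 1 sequencer. The counter, its annotation and its use of strand are not stated in the labels or headers. FPKM values were deposited by the authors and used for levels between genes and for shares. The authors' deposited fold change (ratio), log2 fold change, p-value and adjusted p come from the same counts and are cited only as such.

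Counts were tested with edgeR 4.0.16 (R 4.3.3; quasi-likelihood, TMM, filterByExpr, Benjamini-Hochberg over 15933 genes), with DESeq2 1.42.0 and limma 3.58.1 as alternatives. CPM refer to TMM-scaled totals. The standard error of a log2 fold is the fitted coefficient over the square root of its F. A count of 0 allows up to 3 reads (0.0563 to 0.0869 CPM, 95% confidence, counting error only). Of the LOC numbers, 876 were read under a RefSeq symbol (EquAss-T2T_v2, names only). The 10 genes and the lists were chosen with earlier results of these data known. All 10 are named, with up to 4 members of smallest p per list and the 3 genes of most similar profile to HK2 and PDK4, and others are marked as chosen afterwards. The fit was tested on simulated data.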

Additional observations from a re-analysis of the deposited data

How the results depend on the processing

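EdgeR and limma-voom called 0 genes in every setting tried but the fit without high IMF replicate 1 (0 higher and 3 lower), so that leaving out each library gave 0 to 3 genes and 0 of the 10 glucose entry genes. DESeq2 called 194 genes (114 higher and 80 lower), 1 of the 10 glucose entry genes and 9 list genes. HK2 and SLC2A3 kept a positive and the row named TBC1D1 a negative log2 fold in every edgeR, DESeq2 and limma-voom fit of single rows that tested them. Their groups did not overlap, so leaving out a library could hardly change these signs. LOC106831099, the row with most of the TBC1D1 reads, had a positive log2 fold in edgeR (0.14) and in DESeq2 (0.13). With library size only, the median log2 fold of all genes was 0.15 in place of 0.0085, and 84.8% in place of 62.3% of genes at an unadjusted p under 0.05 were higher. The genes near 0 changed sign. TBC1D4 gave -0.00028 with DESeq2 size factors, -0.00245 with no low-count filter, -0.0019 in DESeq2, -0.014 in limma-voom and -0.023 with the replicate block. PDK2 gave 0.14 with library size only and 0.0031 with the stricter filter, which also left TBC1D1 untested, and TXNIP 0.015 with low IMF replicates 2 and 3 summed. PDK4 gave -1.23 in limma-voom, -2.33 with the replicate block and -1.28 as a difference of mean log2 CPM, and TBC1D1 0.10 with its 2 rows summed. Leaving out each library, the log2 fold ranged from -0.11 to 0.065 for HK1, -0.22 to 0.39 for SLC2A1, -0.65 to 0.032 for SLC2A4, -0.63 to 0.030 for TXNIP, -0.24 to 0.11 for TBC1D4, -0.29 to 0.17 for PDK2 and -3.42 to 0.74 for PDK4, and the difference in PDK4 share from -9.24 to 1.45 percentage points. The cause of these changes was not tested, apart from the libraries left out. Whether the replicate numbers shared by the groups pair the libraries could not be settled. The deviations of same-numbered libraries correlated by 0.232, 0.202 and 0.0409, and those of other pairs by -0.245 to 0.246. Low IMF replicate 3 correlated more with high IMF replicate 2 (0.246) than with its own number. Deviations within a group sum to 0, and low IMF replicates 2 and 3 were close to each other, so these correlations cannot decide it. The replicate block called 0 genes, and HK2 had a log2 fold of 1.63 with it.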
